A study of Mus musculus with 5 samples.

Results

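The genes described here make, break down and bind retinoic acid, the active acid form of vitamin A, and were measured by RNA sequencing in neuroepithelial cells (NECs) of the mouse, the progenitors that form the wall of the early neural tube. They are 9 genes of the 21801 in the table: Rdh10, Aldh1a1, Aldh1a2 and Aldh1a3 for synthesis, Cyp26a1, Cyp26b1 and Cyp26c1 for breakdown, and Crabp1 and Crabp2 for binding. Each was found by its symbol, and each had 1 row. The set was drawn up with the levels in these libraries known, so its levels are given as a description, with no test.

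All 5 libraries belong to 1 group, replicates 1 to 5 of purified mouse NECs, which the series text places in the developing neocortex and the labels also call neural progenitor cells. The labels name no treatment or allele, and the sources used here give neither the embryonic age nor the strain nor the way of purification. Nothing in the labels ties a replicate to an animal of its own, so the spread between libraries, and with it every p-value, may be technical. The values are FPKM, fragments counted per 1000 bases of transcript and per 1000000 mapped reads. Levels of different genes are therefore set side by side. Division by length does not correct for the poly-dT priming and amplification described below, and their effect on comparisons between genes was not tested.

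Retinoic acid is made in a pair of steps. Retinol is oxidised to retinal, for which Rdh10 is the main embryonic enzyme, and retinal is then oxidised irreversibly by the retinaldehyde dehydrogenases Aldh1a1, Aldh1a2 and Aldh1a3. The CYP26 enzymes, cytochromes P450, hydroxylate retinoic acid and so clear it, and the cellular retinoic acid-binding proteins carry it through the cytoplasm, Crabp2 towards the nuclear receptors. In the nucleus retinoic acid binds RAR partners of RAR-RXR pairs, which sit on direct repeats of a short half-site. In the embryonic head Aldh1a2 is known from mesenchyme and, later, the meninges, Aldh1a3 from eye and nasal epithelium, and Crabp1 from the hindbrain and cranial neural crest.

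The upstream sequences of Cyp26a1 and of the receptor gene Rarb are shown because both carry the textbook response element of the pathway, so each is a transcript through which retinoic acid signalling is commonly read. The half-site searched was AGGTCA or the variant of it reading AGTTCA, each also with G as its first letter. The motif was a half-site, then 5 bases of any kind, then another half-site in the same direction, on both strands. The window was the 250 bases before each start in RefSeq's promoters of the build GRCm38.p6, which hold 32851 starts for 27025 genes. The motif stood in 29 of 32851 such windows (0.0883%). Cyp26a1 and Rarb were picked for a known element, so their matches were expected and are no test. The half-sites in both read AGTTCA or GGTTCA, not AGGTCA. Of the 9 genes 6 had a promoter in the table and only Cyp26a1 had the motif, and of the 38 other pathway genes 32 had one and only Rarb had the motif. The 250 bases are printed 5′ to 3′ on the strand of the gene, with the half-sites in capitals.
Cyp26a1: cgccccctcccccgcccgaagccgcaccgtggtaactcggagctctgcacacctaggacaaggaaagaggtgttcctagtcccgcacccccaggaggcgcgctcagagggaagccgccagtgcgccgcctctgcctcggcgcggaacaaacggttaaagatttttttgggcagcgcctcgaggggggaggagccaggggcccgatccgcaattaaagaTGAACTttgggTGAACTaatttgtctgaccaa
Rarb: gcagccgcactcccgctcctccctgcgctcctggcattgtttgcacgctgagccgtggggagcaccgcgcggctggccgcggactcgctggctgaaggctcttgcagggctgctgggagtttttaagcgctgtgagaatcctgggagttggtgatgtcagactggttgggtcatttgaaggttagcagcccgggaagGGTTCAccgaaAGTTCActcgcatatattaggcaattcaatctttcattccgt

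The Cyp26a1 window lies at chr19:37697558-37697807 on the plus strand, and its motif reads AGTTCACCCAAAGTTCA on the strand opposite to the gene, 32 to 16 bases before the start. The Rarb window lies at chr14:16575477-16575726 on the minus strand. The annotated gene spans 16430839 to 16819156, so the window stands before a start inside the gene. Its motif reads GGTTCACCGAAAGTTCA on the strand of the gene, 53 to 37 bases before that start. A match describes the letters only and does not show that a receptor was bound.

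The summed FPKM of the 9 genes was 1323, 1814, 2247, 2007 and 2153 in replicates 1 to 5, of which the binding proteins Crabp1 and Crabp2 held 93.9% to 95.5%. Binding proteins and 1 synthesis enzyme, Aldh1a3, were abundant, Rdh10 was low, and the 2 other synthesis enzymes and the 3 breakdown enzymes lay near or under 1 FPKM. Of the 9 genes 4 were above 1 FPKM in every library, against 47.0% of all 21801 genes, and 4 were below it in every library, against 46.1% of all genes. Cyp26a1 lay on both sides. The median of the 9 means was 0.70 FPKM, against 1.04 FPKM over all genes, so the set as a whole does not stand high. A level below is the mean ± SD over the 5 libraries (n = 5) unless stated otherwise.

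**Figure D1:**
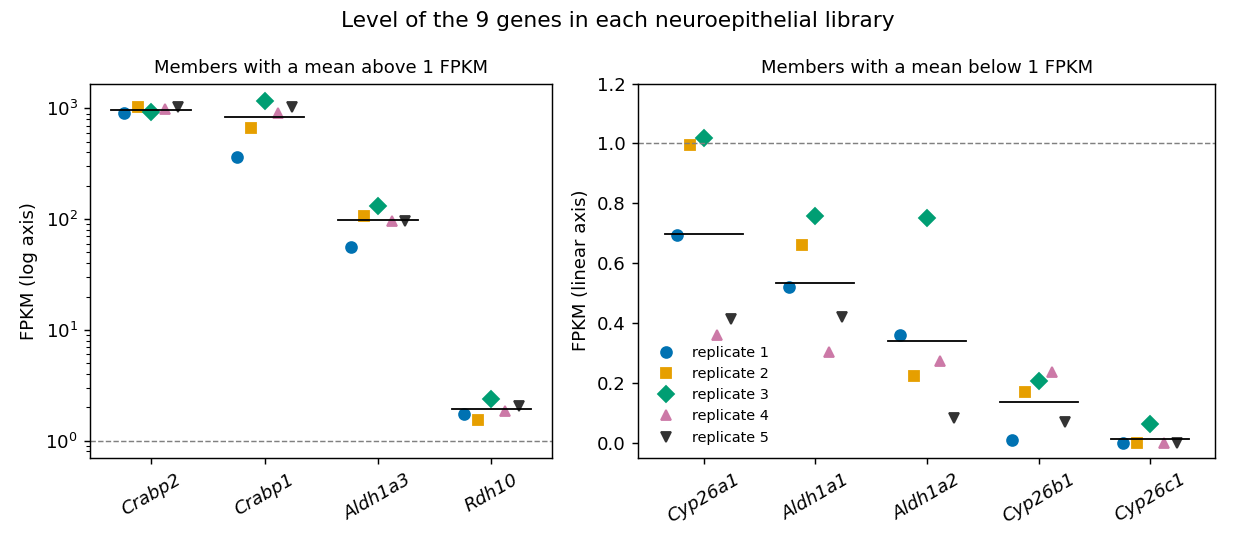
FPKM of the 9 genes in each library (1 marker per replicate) with the mean as a black line and 1 FPKM as a dashed line, on a log axis for the 4 genes with a mean above 1 FPKM and on a linear axis for the other 5. Crabp2 spans 900 to 1032 FPKM while Crabp1 spans 364 to 1176. Replicate 3 is the highest library for 7 of the 9 genes, for some of the low ones by a small margin.

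Rdh10 (ENSMUSG00000025921, chromosome 1, 16105774 to 16133734 on mm10), the enzyme of the first step, had 1.74, 1.52, 2.40, 1.85 and 2.04 FPKM in replicates 1 to 5. The mean was 1.91 ± 0.33 FPKM, above that of 55.4% of all genes. Replicate 3 was highest and replicate 2 lowest, and the spread of its log2(FPKM + 1) values (SD 0.16) was close to the median SD of 0.16 among the 10983 genes that averaged 1 FPKM or more.

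Aldh1a3 (ENSMUSG00000015134, chromosome 7, 66390890 to 66427517) had 55.6, 106, 132, 96.9 and 95.4 FPKM, with a mean of 97.3 ± 27.6 FPKM, above that of 93.1% of all genes. Replicate 1 stood at 57.2% of the mean and replicate 3 at 136% of it, so the highest library was 2.38 times the lowest. The SD of its log2 values was 0.46, larger than that of 96.7% of those genes.

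Aldh1a1 (ENSMUSG00000053279, chromosome 19, 20492715 to 20643465) had 0.519, 0.660, 0.759, 0.304 and 0.420 FPKM. Aldh1a2 (ENSMUSG00000013584, chromosome 9, 71215789 to 71296243), the enzyme that makes most retinoic acid in the trunk of the embryo, had 0.360, 0.222, 0.752, 0.273 and 0.0838 FPKM. Both were highest in replicate 3, both stayed under 1 FPKM in every library, and their ranges overlapped, although Aldh1a1 was higher than Aldh1a2 in 5 of 5 libraries. At the read totals implied by the low values, which ran from 20.4 to 28.3 M (1 M = 1000000), these levels rest on roughly 19 to 37 reads for Aldh1a1 and 4 to 32 reads for Aldh1a2 in a library. Aldh1a7, a close paralog of Aldh1a1 on the same chromosome that is not among the 9 genes, had 2.46, 5.98, 5.20, 3.78 and 3.20 FPKM (mean 4.12 ± 1.44), chosen after its values were seen. It was higher than Aldh1a1 in all 5 libraries, and how reads common to the pair were split is not given in the labels.

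Aldh1a3 therefore made up nearly all of the transcript of the 3 retinaldehyde dehydrogenases listed, a sum that leaves out Aldh1a7 (mean 4.12 FPKM). The share of Aldh1a3 in the summed FPKM of the 3 was 98.4%, 99.2%, 98.9%, 99.4% and 99.5% in replicates 1 to 5 (mean 99.1% ± 0.42). Aldh1a1 held 0.57% ± 0.23 and Aldh1a2 0.35% ± 0.24. Between the steps of synthesis, Aldh1a3 exceeded Rdh10 31.9-fold to 69.9-fold within a library, and the ratio was lowest in replicate 1 and highest in replicate 2.

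Cyp26a1 (ENSMUSG00000024987, chromosome 19, 37697798 to 37701536), whose transcription retinoic acid is known to induce, had 0.695, 0.996, 1.02, 0.359 and 0.413 FPKM. Its mean was 0.70 ± 0.31 FPKM, or roughly 15 to 41 reads in a library. Replicates 2 and 3 were high and replicates 4 and 5 low. The same libraries were high and low for Aldh1a1, and the ratio of Cyp26a1 to Aldh1a1 stayed between 0.98 and 1.51.

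Cyp26b1 (ENSMUSG00000063415, chromosome 6, 84571414 to 84593908), the family member known from hindbrain, limb and gonad, had 0.00971, 0.170, 0.205, 0.235 and 0.0673 FPKM. These levels rest on about 1, 19, 18, 29 and 7 reads, so replicate 1 was low and its exact level is uncertain. Cyp26c1 (ENSMUSG00000062432, chromosome 19, 37685581 to 37693398) reached 0.0627 FPKM in replicate 3, about 2 reads, and was listed at 0 in replicates 1, 2, 4 and 5. It neighbours Cyp26a1 on the same strand, 4399 bases away with no annotated gene between them.

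Cyp26a1 held 98.6%, 85.4%, 79.2%, 60.4% and 86.0% of the summed FPKM of the 3 CYP26 genes in replicates 1 to 5, and Cyp26b1 held 1.38%, 14.6%, 15.9%, 39.6% and 14.0%. Cyp26a1 was the most abundant of them in 5 of 5 libraries. The summed synthesis enzymes of the second step exceeded the summed CYP26 genes 80.2-fold in replicate 1 and 199.8-fold in replicate 5. Both sums varied, that of the Aldh1a genes between 56.5 and 134 FPKM and that of the CYP26 genes between 0.48 and 1.28 FPKM.

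Crabp2 (ENSMUSG00000004885, chromosome 3, 87948666 to 87953376) had 900, 1032, 933, 999 and 1020 FPKM, and Crabp1 (ENSMUSG00000032291, chromosome 9, 54764748 to 54773110) had 364, 673, 1176, 909 and 1035 FPKM. With means of 977 ± 57.3 and 831 ± 320 FPKM they ranked 136th and 159th of all 21801 genes. The pair differed in steadiness. Crabp2 varied by 1.15-fold between its extreme libraries, with an SD of log2 values (0.09) under that of all but 12.4% of the genes that averaged 1 FPKM or more. Crabp1 varied by 3.23-fold, and its SD (0.67) was larger than that of 98.9% of those genes.

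The ratio of Crabp1 to Crabp2 was 0.40, 0.65, 1.26, 0.91 and 1.01 in replicates 1 to 5. Crabp1 was thus the higher of the pair in replicates 3 and 5 and the lower in replicates 1, 2 and 4. Its share of the summed FPKM of both was 44.4% ± 10.5, from 28.8% in replicate 1 to 55.8% in replicate 3.

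Ordered by mean, the levels ran Crabp2, Crabp1, Aldh1a3, Rdh10, Cyp26a1, Aldh1a1, Aldh1a2, Cyp26b1 and Cyp26c1. The ranges did not overlap between Crabp1 and Aldh1a3 (mean difference 3.02 on the log2 scale), Aldh1a3 and Rdh10 (5.03) or Rdh10 and Cyp26a1 (0.79). They overlapped between Crabp2 and Crabp1 and between all neighbours from Cyp26a1 down. Within a library, Aldh1a1 was nevertheless higher than Aldh1a2, Aldh1a2 than Cyp26b1 and Cyp26b1 than Cyp26c1 in 5 of 5 libraries each, by 0.21 ± 0.20, 0.22 ± 0.25 and 0.16 ± 0.11 on the log2 scale. Cyp26a1 was higher than Aldh1a1 in 4 of 5 libraries and Crabp2 higher than Crabp1 in 3 of 5. Some margins among the low genes were about 1 read: Aldh1a1 and Aldh1a2 had about 33 and 32 reads in replicate 3. Cyp26b1 and Cyp26c1 had about 1 and 0 in replicate 1. Aldh1a2 had fewer reads than Cyp26b1 in replicates 4 (about 16 against 29) and 5 (4 against 7). Its higher rank there comes from the division by length.

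Replicate 3 was the highest library for 7 of the 9 genes, all but Cyp26b1 and Crabp2, and for 18.5% of the 19706 genes above 0 in any library. The count was also 7 after each library was rescaled by its median ratio or to a total of 1000000 FPKM. Some of the 7 had small margins. Cyp26c1 rests on about 2 reads there, and Cyp26a1 had 1.02 FPKM against 0.996 in replicate 2. Cyp26a1 and Aldh1a1 had about 33 reads each in replicate 3, against about 41 and 37 in replicate 2. Crabp1 deviated from its own mean by -1.08, -0.20, 0.61, 0.24 and 0.43 on the log2 scale in replicates 1 to 5, and Aldh1a3 by -0.74, 0.18, 0.49, 0.05 and 0.02. Both were lowest in replicate 1.

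Markers of other cell types moved with these libraries. The 12 mesenchyme and meninges markers summed to 48.9, 85.1, 179, 145 and 148 FPKM in replicates 1 to 5, led by the matrix proteoglycan Lum. In a test of each gene against 1 FPKM (limma, Benjamini-Hochberg adjustment over the 19706 genes above 0 in any library), 9 of them were called above, against 52.3% of all genes tested, and Dcn was called below, against 41.4%. Foxc1 and Foxd1 were called neither way, and none was at 0 in all libraries. Of the 11 that averaged 1 FPKM or more, 10 were lowest in replicate 1 and 9 highest in replicate 3, against 35.0% and 21.9% of all genes with such a mean, and their median deviation was -0.83, -0.36, 0.47, 0.23 and 0.35. Crabp1 ran in the same order, with replicate 1 lowest, then replicates 2, 4 and 5, and replicate 3 highest. The 6 neural crest markers summed to 19.3, 27.9, 47.1, 35.8 and 39.4 FPKM, led by Tfap2b, with Foxd3 at 0 in 4 libraries and Sox10 at 0.0760 to 0.367 FPKM.

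The 8 surface ectoderm markers had another order, with summed values of 99.5, 151, 139, 103 and 103 FPKM and the keratin Krt18 as the highest. Replicates 2 and 3 were high in this sum, as they were for Aldh1a1 and Cyp26a1. Krt8, Krt18, Epcam, Trp63 and Grhl2 were also highest in these libraries. Grhl3 had 8.29 FPKM in replicate 3, below replicates 4 and 5 (9.22 and 8.79). Krt14 was highest in replicate 1 (0.997 FPKM), and Krt5 had 0.230 FPKM in both replicates 2 and 4. Of the 10 neural progenitor markers 9 were called above 1 FPKM, against 52.3% of all genes tested, and Hes5 neither way. Their sum was 290, 287, 246, 279 and 276 FPKM, and their median deviation ran from 0.20 in replicate 1 to -0.21 in replicate 3. Of the 9 that averaged 1 FPKM or more, 5 were highest in replicate 1 and 5 lowest in replicate 3, against 16.4% and 20.7% of all genes with such a mean. Sox1, Sox2, Sox3 and Pax6 were both, the reverse of most mesenchyme markers. Other markers of the list differed. Vim deviated by -0.19 in replicate 1 and 0.09 in replicate 3, Nes by 0.07 and 0.17, and Notch1 by -0.17 and -0.09. The 5 eye field and optic vesicle markers, led by Six3, summed to 11.1 to 17.5 FPKM, and the sum was highest in replicate 1. Rax, at 0.104 to 0.324 FPKM, was highest in replicate 5, and Pax2 in replicate 4. The 6 neuron markers, led by Tubb3, summed to 64.4 to 111 FPKM, and the 5 endothelium markers, led by Pecam1, to 4.97 to 7.97 FPKM. Blood markers, led by Hbb-y, summed to 2.22 to 7.86 FPKM and microglia markers, led by Csf1r and with Aif1 at 0 in all libraries, to 0.132 to 0.621 FPKM. The part of these cell types in the levels of Crabp1, Aldh1a3 and the low enzymes was not tested. In bulk RNA fewer cells of a type and less RNA per cell cannot be told apart.

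**Figure D2:**
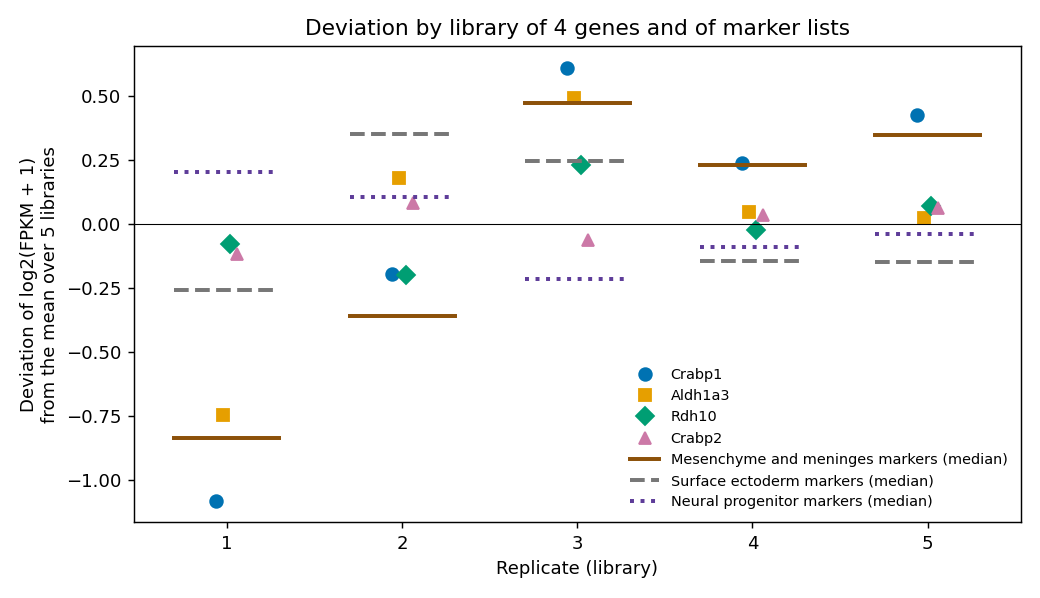
Deviation of log2(FPKM + 1) from the mean over the 5 libraries (vertical axis) by replicate (horizontal axis), for 4 genes as markers and for the median of 3 marker lists as short bars. Crabp1 and Aldh1a3 are lowest in replicate 1 (-1.08 and -0.74), as is the mesenchyme and meninges list (-0.83), while Crabp2 stays between -0.12 and 0.08.

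The genes whose pattern over the 5 libraries was nearest to each of the 4 members that averaged 1 FPKM or more were found by the root mean square difference of their deviations, among all genes above that same bound. For Crabp1 these were Ddr2 (0.08), a collagen receptor, Ets1 (0.10) and Pdgfrb (0.11), the last 2 of which belong to the neural crest and mesenchyme lists above. Ddr2 had 4.37, 8.0, 14.0, 12.5 and 13.6 FPKM. For Aldh1a3 they were the integrin subunit Itgb5 (0.03), the growth factor Igf2 (0.09) and Dhrs3 (0.11), the retinal reductase described below.

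For Crabp2 the nearest were Pex19, Pcna and 1600014C10Rik (0.01 each), and for Rdh10 they were Ankrd28, Fam84b and Dtwd2 (0.01 each). Genes with small spread lie close to many others on this measure, which applies to Crabp2. With 5 libraries the nearness is a description.

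The other genes of the pathway, 38 in 6 lists with 4 of them in more than 1 list, were tested against 1 FPKM in the same limma fit. Of the 38, 21 were called above 1 FPKM, against 52.3% of all genes tested, 16 below, against 41.4%, and 1 neither way. The median of their means was 1.71 FPKM. Counts at an unadjusted p under 0.05 were the same in each list.

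Of the 6 nuclear receptors, through which retinoic acid acts on transcription, 4 were above 1 FPKM, 1 below and 1 neither way. Of all genes tested 52.3% were above and 41.4% below. Rxra, a shared partner of many nuclear receptors, had the highest level at 6.27 ± 0.67 FPKM (limma log2 difference from 1 FPKM 1.86, SE 0.07, adjusted p = 7.3e-08). Rarb, itself induced by retinoic acid through the element printed above, had 3.01, 2.41, 5.63, 3.08 and 3.36 FPKM, with replicate 3 well above the others (mean 3.50 ± 1.24, log2 difference 1.13, adjusted p = 0.000104). Some exon bases of Rarb are shared with Top2b and with an antisense transcript on the opposite strand, and without stranded counting their reads could not be told apart.

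Rxrb stood at 2.39 ± 0.46 FPKM and Rxrg at 1.77 ± 0.43 FPKM, both above the level. Rara, the most widely expressed receptor of the family, was below it at 0.40 ± 0.07 FPKM (log2 difference -0.52, adjusted p = 5.5e-06). Rarg was called neither way. It had 0.477, 0.291, 1.24, 5.94 and 0.722 FPKM, so 1 library, replicate 4, held most of its mean, and without it the log2 difference was -0.28 instead of 0.13.

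Within a library, 2 pairs of receptors were compared with a two-sided exact permutation test that flips signs over libraries. In all 5 libraries Rxra was higher than Rxrb, by 1.11 ± 0.28 in log2 terms (exact p = 0.0625, adjusted over the 2 pairs 0.125). Rara minus Rarg was -0.66 ± 1.00, with Rara higher in 1 of 5 libraries (exact permutation p = 0.125, adjusted 0.125). The smallest p that 5 libraries allow is 0.0625, so neither pair could pass 0.05.

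Among 6 genes of retinol uptake, carriage and storage, 2 were above 1 FPKM and 4 below, against 52.3% and 41.4% of all genes tested. Stra6, the membrane receptor that takes up retinol, had 15.7, 22.7, 23.1, 22.2 and 22.7 FPKM (mean 21.3 ± 3.15). It was lowest in replicate 1, where its level stood apart from the other libraries, and highest in replicate 3. Retsat, which saturates retinol, stood at 11.5 ± 1.25 FPKM.

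Rbp4, the serum carrier of retinol, was below the level at 0.30 ± 0.11 FPKM, and the intestinal carrier Rbp2 was above 0 only in replicate 3, at 0.103 FPKM. Lrat, which esterifies retinol for storage, and Bco1, which cleaves carotene, were also below.

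Of 13 other oxidoreductases that act on retinol, retinal or related substrates, 8 were above 1 FPKM and 5 below. The shares of all genes tested were 52.3% and 41.4%. Dhrs3, which reduces retinal back to retinol and so works against Rdh10, had 7.54, 15.1, 21.2, 15.1 and 16.6 FPKM (mean 15.1 ± 4.93, log2 difference 2.95, adjusted p = 1.1e-06). It exceeded Rdh10 in 5 of 5 libraries, and the ratio of Rdh10 to Dhrs3 was 0.23, 0.10, 0.11, 0.12 and 0.12 in replicates 1 to 5. Like Crabp1 and Aldh1a3, Dhrs3 was lowest in replicate 1 and highest in replicate 3.

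The highest levels in this list were those of Adh5, a dehydrogenase of broad substrates known mainly for formaldehyde, at 329 ± 26.5 FPKM, Rdh13 at 44.4 ± 3.94 and the retinal reductase Rdh11 at 16.6 ± 1.99. Rdh5 stood at 5.76 ± 1.59 FPKM, and Cyp1b1, Rdh14 and Rdh12 at 1.68 ± 0.48, 1.63 ± 0.34 and 1.45 ± 0.43. Rdh12 was only just called (adjusted p = 0.032 by limma), and the call was lost without replicate 1, 2 or 4 (adjusted p = 0.064, 0.081 and 0.068). Rdh5 shares exon bases with Bloc1s1 on the same strand, so its reads are uncertain. Dhrs9 was lowest, at 0 to 0.0321 FPKM, and Rdh1, Adh1, Adh7 and Aldh8a1 were also below.

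Of 5 coregulators that the receptors recruit, 4 were above 1 FPKM and 1 below, against 52.3% and 41.4% of all genes tested. The corepressor Ncor1 had 53.3, 51.0, 73.7, 66.8 and 66.9 FPKM and was the highest of them in every library. The coactivators Ncoa3 and Ncoa2 stood at 8.70 ± 1.5 and 6.10 ± 0.51 FPKM and Nrip1, which is induced by retinoic acid and represses its receptors, at 8.53 ± 1.55. The coactivator Ncoa1 was below the level at 0.70 ± 0.13 FPKM (limma log2 difference -0.24, adjusted p = 0.0051). That call was lost after rescaling each library to a total of 1000000 FPKM, with a log2 difference of -0.091 (adjusted p = 0.27 by limma). Ncor1, Ncoa1 and Ncoa3 share exon bases with genes on the opposite strand.

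The list of 10 retinoic acid-responsive genes split into 6 above 1 FPKM and 4 below, against 52.3% and 41.4% of all genes tested. Besides Rarb, Dhrs3, Stra6 and Nrip1 the homeobox factors Meis1 (56.3 ± 10.2 FPKM) and Meis2 (18.4 ± 1.76 FPKM) were above. Stra8, Hoxb1, Tgm2 and Cdx1 were below, and Stra8, a gene of the entry into meiosis and the lowest of the list, was above 0 only in replicates 1 and 4, at 0.0869 and 0.176 FPKM. These genes stood on both sides of the level, in shares near those of all genes, with Cyp26a1 at 0.70 FPKM between them. Of the 6 above, 4 were highest in replicate 3, against 21.9% of all genes that averaged 1 FPKM or more. They were Rarb, Dhrs3, Stra6 and Nrip1, which also stand in other lists. For Stra6 the margin was small, 23.1 FPKM against 22.7 in replicate 5. Fabp5, a fatty acid carrier that can also take retinoic acid to the receptor Ppard, stood at 310 ± 28.4 FPKM, while Ppard was below the level at 0.32 ± 0.16 FPKM. A pseudogene of Fabp5 is annotated, and reads common to both may have been divided between them.

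**Figure D3:**
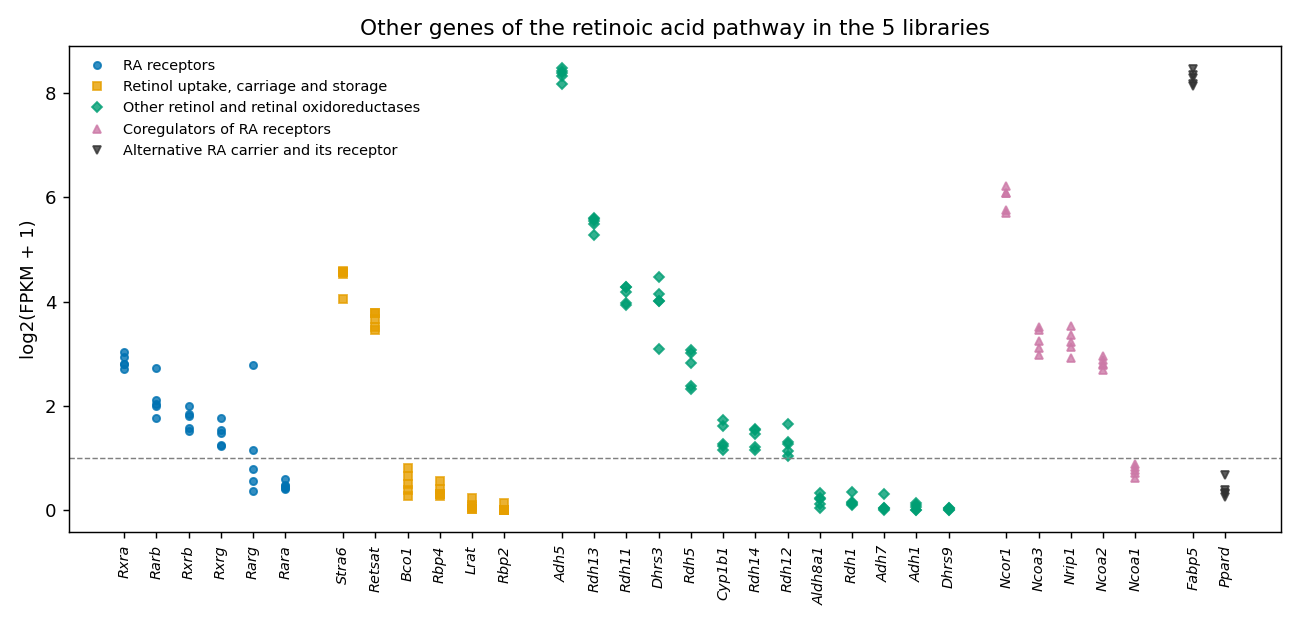
Level of the pathway genes outside the 9 members as log2(FPKM + 1), with 1 marker per library, grouped by list and ordered by mean within a list; the list of responsive genes is not drawn. The dashed line marks 1 FPKM. Adh5, Fabp5 and Ncor1 lead, and Rarg shows 1 library (5.94 FPKM) far above its other 4.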

How the data were processed

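Total RNA of 5 NEC libraries was sequenced. Per the labels' protocols, cDNA primed with poly-dT was amplified over 12 cycles, sheared, amplified over 15 more and read as single ends of 75 bases, on average 35 M reads per sample. No molecular identifiers and no strand are described. The authors deposited 1 table of FPKM, and mm10, TopHat2 2.0.11, Cuffdiff 2.2.1, CASAVA 1.8 and cutadapt were used in a role not stated, per the submitters' processing notes. In all 5 libraries 2095 genes are listed at 0, which can be a failed estimate.

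FPKM are not counts, so log2(FPKM + 1) was tested with limma 3.58.1 in R 4.3.3 (intercept against 1 FPKM, two-sided, variance trend, adjusted p under 0.05). The test was checked on simulated data with independent normal noise on the log2(FPKM + 1) scale. That check does not cover the stepwise values of genes near 0 on this scale. This scale understates differences of low genes. Read totals were read from the steps between values under 0.15 FPKM of genes with 1 transcript longer than 800 bases, taking 200 bases off each length, an offset chosen with the data in view, and cover counting only. Reads per gene use the longest GENCODE M21 transcript and are approximate. Positions are from GENCODE M21, also mm10, which held 21537 of the 21801 IDs.

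The members and lists were chosen with earlier results of these data known. Some genes first placed in the lists and pairs are not reported here, and list counts and adjustments over pairs leave them out. Named by rule were the members, every pathway gene called above 1 FPKM, the lowest gene of each list, both genes of each pair and the 3 genes nearest in pattern to each member with a mean of at least 1 FPKM. The highest gene of each marker list and genes at 0 throughout were named too, and any other gene was chosen after its values were seen. Alternatives were pseudocounts of 0.5 and 0.1, levels of 0.5 and 2 FPKM, 2 other filters, 2 rescalings, no variance trend and leaving out each library.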

Additional observations from a re-analysis of the deposited data

Results flagged for a closer look

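Of 47 genes examined, the 9 members and the 38 other pathway genes, 5 had 1 library far from the other 4. There the gap was over 0.71 of the whole range of log2(FPKM + 1). For normally distributed values chance gives about 1 in 20, and the share over all genes was not computed. A gene above 0 in only 1 library always passes this rule, as Cyp26c1 and Rbp2 do. Stra6 was low in replicate 1 at 15.7 FPKM, against 22.2 to 23.1 in the others. Adh7 and Rdh1 were high in replicate 1, at 0.235 and 0.270 FPKM, against 0 to 0.0361 and 0.0780 to 0.113 in the others, and rest on roughly 17 and 23 reads there. Rdh1 shares exon bases with Rdh16f1 on the same strand, and Adh7 with an antisense transcript on the opposite strand. Which gene those reads came from is uncertain. Cyp26c1 was listed at 0.0627 FPKM and Rbp2 at 0.103 FPKM in replicate 3, and both at 0 in the other libraries, which at this depth is a difference of a few reads.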

How the results depend on the processing

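Of 675 recomputed values 653 kept their call, their count within 1.5 times, their mean within 1 SD or, for pairs, their sign. Leaving out 1 of 5 libraries always moves a mean by less than 1 SD, so means and shares could not fail there. The 14 settings of the pairs all kept their sign, but the exact permutation test could not give a p under 0.05 in any of them. The count of 653 thus includes settings that could not have failed. Against a level of 2 FPKM, 2 receptors and 5 oxidoreductases were called above, and the log2 differences of Cyp1b1 (-0.18), Rarg (-0.45), Rdh12 (-0.31), Rdh14 (-0.20) and Rxrg (-0.13) turned negative, which follows from the higher level. Against 0.5 FPKM and after rescaling to a sum of 1000000 FPKM, 0 coregulators were called below by limma, also at an unadjusted p under 0.05, and against 0.5 FPKM the log2 difference of Ncoa1 turned positive (0.18). With genes averaging under 0.1 FPKM left out, 2 genes were called below in each of the uptake, oxidoreductase and responsive lists, since fewer genes were tested. Rarg also turned negative with a pseudocount of 0.1 (-0.021), and leaving out 1 library it ranged from -0.28 without replicate 4 to 0.33 without replicate 2. The rescaling to a sum of 1000000 FPKM shifted the median gene by 0.30 on the log2 scale and put Rdh10 at 2.40 and Crabp2 at 1223 FPKM. The list counts without 1 library ranged from 7 to 8 oxidoreductases above, from 3 to 4 uptake genes below, and were otherwise as given. Without replicate 3, Cyp26c1 was listed at 0. The mean of Crabp1 ranged from 745 to 948 FPKM and that of Aldh1a3 from 88.6 to 108 when 1 library was left out. No paired analysis was possible because the series has 1 group, so no groups could be paired by replicate; differences between genes were taken within a library. Cyp26c1, Rbp2 and the lowest value of Cyp26b1 rest on a few reads, so their exact levels are uncertain at this depth.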
